A study of Homo sapiens with 6 samples.

Results

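Transcripts of the kinetochore, the centromere and the spindle checkpoint were followed in RNA brought down with the double-stranded RNA-binding protein Stau1 from cells arrested in mitosis. The set was defined by gene symbol from a list of 37 genes, of which 36 were found among the 37879 targets of the array; CENPT was not found under that symbol. HEK293T cells, a transformed human embryonic kidney line, had been transfected with a plasmid for Stau155-FLAG, an isoform of Stau1 carrying a FLAG tag, or with the empty vector. All cells received nocodazole at 50 ng/ml for 15 h, a microtubule poison that holds cells in prometaphase. The same anti-FLAG antibody was used in both groups. The 3 immunoprecipitates (IPs) from vector cells are Control IP 1, 2 and 3, and the 3 from Stau155-FLAG cells are Stau1 IP 1, 2 and 3. The tagged protein came from a plasmid added to cells that still made their own Stau1, so the Stau1 IPs sample RNA bound to the tagged copy in addition to RNA that sticks to the antibody gel. The labels do not say that the replicates came from separate cultures, so p-values measure the spread between these arrays, which may be technical.

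The kinetochore is the protein assembly built on centromeric chromatin that attaches a chromosome to spindle microtubules. Its inner layer reads the centromeric histone CENP-A, its outer layer holds the microtubule, and unattached kinetochores recruit the spindle checkpoint proteins that delay anaphase. Nocodazole removes microtubules and so keeps this checkpoint active. Most of these genes are transcribed late in the cell cycle, and many carry a cell cycle gene homology region (CHR), a short promoter element read by MuvB complexes.

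RefSeq promoter windows (GRCh38.p14, 250 bases before to 50 after the annotated start) were held for 29 of the 37 listed genes. The letters TTTGAA, the core of the CHR, or TTCAAA on the other strand, occurred in a window of 11 of these genes (37.9%). Of all 27305 genes with a window, 4961 held them (18.2%). They are shown for 3 members lower in the Stau1 IPs at an unadjusted p under 0.05 (CENPN in only 6 of 16 alternatives) and for 3 that were not, with the motif in capitals and the plus strand written 5′ to 3′.
CENPF, chr1:214603223-214603244: ggctgcgggcagTTTGAAttag
CENPN, chr16:81007205-81007234: gcaattggtggcTTTGAAggcgcggcgagc
BUB1B, chr15:40161034-40161063: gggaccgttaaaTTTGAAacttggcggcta
CENPA, chr2:26786026-26786055: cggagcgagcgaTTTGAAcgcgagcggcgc
CDCA8, chr1:37692481-37692510: gtgactgtggagTTTGAAttgggtggcggt
INCENP, chr11:62123989-62124018: tgagccttcagtTTTGAAaatcatagtttt
Of the members lower in the Stau1 IPs at an unadjusted p under 0.05, 3 of 10 with a window held the motif (30.0%), against 8 of 19 of the other listed genes (42.1%). The match describes letters near the start of each gene, and the array measured RNA, not promoter activity.

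Values on single arrays are given as the deposited signal, a mean bead intensity with no background subtraction, in arbitrary units. Folds are between background-corrected, quantile-normalized log2 signals, so they are larger than the ratio of the deposited signals for dim targets. Between 11635 and 13054 targets were detected per array at a detection p under 0.05, and the median signal ran from 87.9 to 102. Of the 36 members, 33 were detected on at least 3 arrays and 28 on all 6, whereas CENPI, CASC5 and SGOL2 were detected on none. The median error between beads was 3.33% to 4.41% of a member's signal, which covers the beads and not the IPs. Markers of the line were detected on all arrays for 6 of 7 genes (PAX2, the seventh, on 1 array), mitotic genes (CCNB1, CDC20, PLK1 and AURKA) for 4 of 4, and markers of blood, liver and muscle on no array for 7 of 7. STAU1 itself gave 2499, 3246 and 2758 in Control IP 1, 2 and 3 and 2845, 1857 and 3130.1 in Stau1 IP 1, 2 and 3. Its groups overlapped (log2 fold change -0.17, SE 0.16, adjusted p = 0.867), so its level did not check the labels. Whether this target reads the plasmid's mRNA beside the cells' own was not analysed here. The signal of an IP depends on both the amount of an mRNA in the cells and the share brought down, and these cannot be told apart here.

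The arrays numbered 2 stood apart from their groups. Over 9884 targets detected on all arrays, Stau1 IP 1 and 3 correlated at r = 0.995, while Stau1 IP 2 correlated with them at 0.937 and 0.939, below its 0.955 and 0.971 with Control IP 1 and 3. Control IP 2 correlated with Stau1 IP 1 and 3 at 0.982 and 0.983, above its 0.975 and 0.980 with Control IP 1 and 3. The group labels of these 2 arrays may therefore be exchanged, which was not tested and which bears on every fold and p from all 6 arrays. Labels were kept in every fit, and a second fit left out Control IP 2 and Stau1 IP 2. That fit compares 2 arrays with 2. The omitted arrays were chosen because they stood apart, which lowers the spread within groups, so p-values of the second fit may be too small.

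With all 6 arrays, CENPQ, CENPJ and TTK were depleted in the Stau1 IPs (3 of 36 members) and no member met the call for enrichment. A call needed a fold above 2.5 and an unadjusted limma p under 0.05, and across all targets it was met by 10 enriched (0.0264%) and 13 depleted (0.0343%), or 0.0783% and 0.102% of targets detected on at least 3 arrays. Of those 13 targets, 3 were therefore members of this set. CENPF missed the call with a fold of 2.497. At an unadjusted p under 0.05 alone, 13 members were lower and 3 higher, against 5.15% and 4.38% of all targets and 11.5% and 9.53% of the 12774 targets detected on at least 3 arrays. Among the 33 members detected on at least 3 arrays, 12 were lower and 3 higher. No member passed a Benjamini-Hochberg adjusted p of 0.05, and neither did any other target (0%). The groups did not overlap, with lower Stau1 IP values, in 13 members, and with higher values in 3, against 7.8% and 6.71% of all targets and 12.2% and 9.51% of those detected on at least 3 arrays. Among the 33 detected members these counts were 11 and 3. The log2 fold change was below 0 in 28 of 36 members (77.8%) and in 49.8% of all targets. Its median was -0.30 over the members and 0.00057 over all targets.

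**Figure D1:**
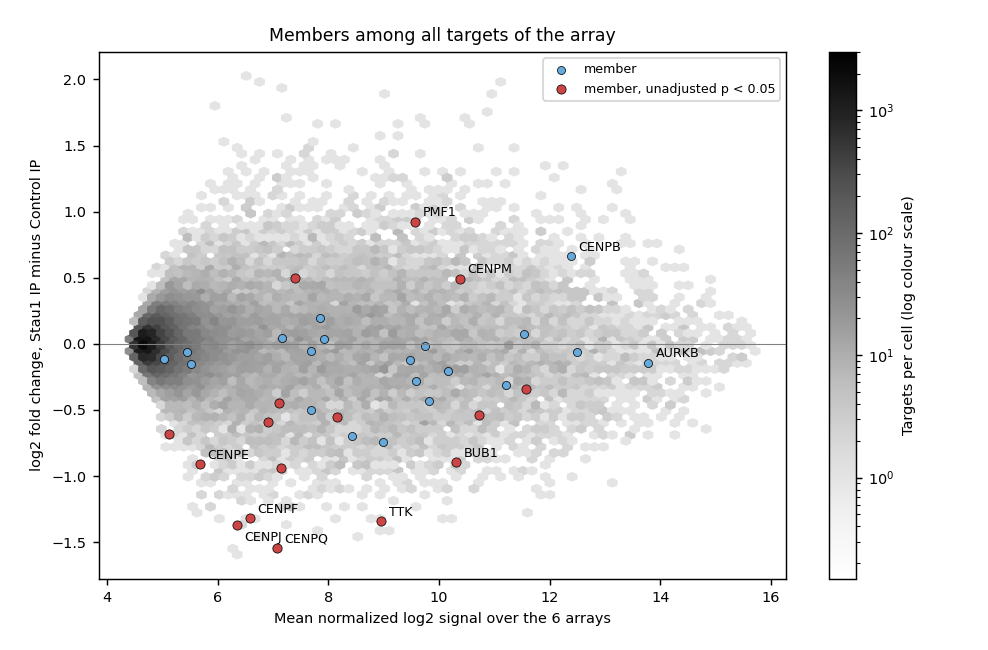
Log2 fold change (Stau1 IP minus Control IP) against the mean normalized log2 signal over the 6 arrays, with grey cells counting all 37879 targets and points marking the 36 members (red, unadjusted p under 0.05). CENPQ, CENPJ, CENPF and TTK lie at the lower edge of the cloud, and PMF1 is the highest member.

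Without Control IP 2 and Stau1 IP 2, the same 3 members were depleted and none was enriched, against 0.288% and 1.19% of all targets. An adjusted p under 0.05 was then reached by 8 members that were lower (2.78% of all targets, 7.68% of those detected on at least 3 arrays) and 2 that were higher (3.49% and 9.45%). The lower members were CENPE, CENPF, CENPJ, DSN1, NSL1, BUB1, TTK and AURKB, and the higher ones CENPB and PMF1. Of these 10, 7 had an unadjusted p under 0.05 with all arrays. At an unadjusted p under 0.05, 16 members were lower (9.92% of all targets, 24.6% of those detected) and 4 higher (8.99% and 21.4%), and the median was -0.36 over the members against -0.01 over all targets. Among the 33 members detected on at least 3 arrays, 15 were lower and 4 higher. All 16 members that had passed an unadjusted p of 0.05 with all arrays kept their sign, and 15 of them passed it again.

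**Figure D2:**
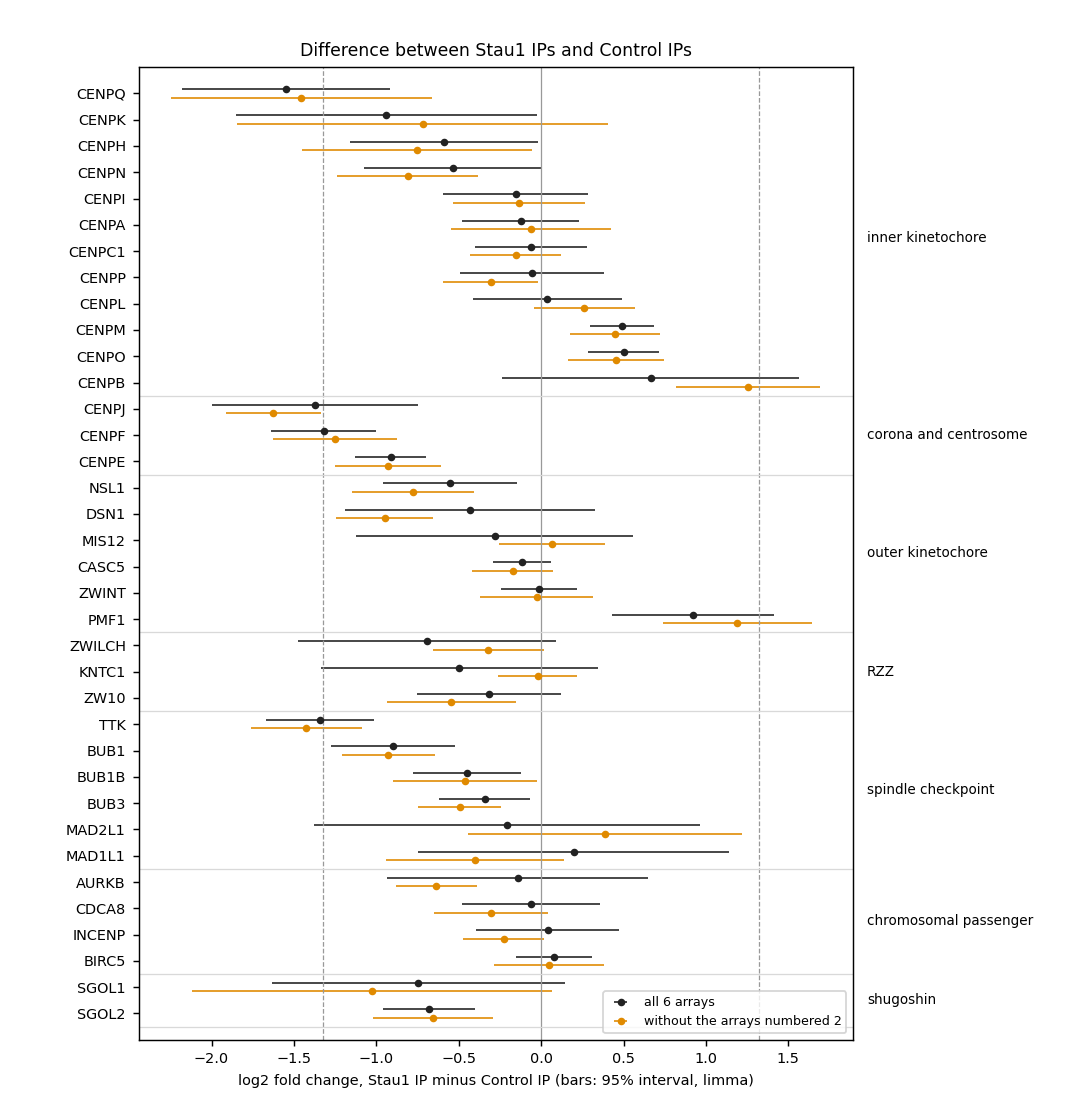
Log2 fold change of each member with its 95% confidence interval, from all 6 arrays (black) and without the arrays numbered 2 (orange), with dashed lines at a 2.5-fold difference. CENPQ, CENPJ, TTK and CENPF lie lowest in the fit of all arrays at -1.55, -1.37, -1.34 and -1.32, and the orange intervals of CENPB and PMF1 lie above 0.

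The 3 transcripts for proteins of the fibrous corona and the centrosome had the lowest median log2 fold change of the roles described here, at -1.32. CENPJ, a centriolar protein that sets centriole length, had signals of 206, 176 and 219 in Control IP 1, 2 and 3 and 122, 116 and 123 in Stau1 IP 1, 2 and 3. All Stau1 IPs were below all Control IPs, and Control IP 2 was the lowest control. Detection held on all 3 controls and on 2 of the 3 Stau1 IPs. CENPJ was depleted 2.59-fold (log2 fold change -1.37, SE 0.25, unadjusted p = 0.00170, adjusted p = 0.218). Without the arrays numbered 2 the log2 fold change was -1.63 (adjusted p = 0.00754). CENPF, a large coiled-coil protein of the corona, gave 183, 279 and 205 in the controls and 134, 125 and 128 in the Stau1 IPs. The controls spread more than the Stau1 IPs, with Control IP 2 the highest of the 6 arrays. Its log2 fold change was -1.32 (SE 0.13, adjusted p = 0.154), and -1.25 without the arrays numbered 2 (adjusted p = 0.0172). CENPE, the kinesin that carries chromosomes along microtubules, gave 124, 154 and 132 and then 102, 107 and 102. It was detected on all 3 controls and on no Stau1 IP. Its fitted signal was 1.88-fold lower in the Stau1 IPs (log2 fold change -0.91, SE 0.09, adjusted p = 0.154). The fold is an estimate and not a lower limit. With single arrays left out, the log2 fold change of CENPE ran from -0.96 to -0.85. These 3 targets were dim, and their folds depended on how the background was handled. With no background correction the log2 fold changes were -0.77 for CENPJ, -0.78 for CENPF and -0.42 for CENPE, each smaller in size than with it.

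Among the spindle checkpoint transcripts, 4 of 6 were lower at an unadjusted p under 0.05 and none was higher. Of targets detected on at least 3 arrays, 11.5% were lower and 9.53% higher at that p. TTK encodes Mps1, the kinase that starts checkpoint signalling at unattached kinetochores. Its signal was 757, 848 and 945 in Control IP 1, 2 and 3 and 438, 299.8 and 429 in Stau1 IP 1, 2 and 3, and the highest Stau1 IP was below the lowest control. TTK was depleted 2.53-fold (log2 fold change -1.34, SE 0.13, unadjusted p = 5.68e-05, adjusted p = 0.154), and it ranked 14 of 37879 targets by p. The log2 fold change was -1.42 without the arrays numbered 2 (adjusted p = 0.0126) and -1.18 with no background correction. BUB1, the kinase that marks the inner centromere, gave 1759.9, 1673 and 1885 in the controls and 1180.0, 748 and 1151 in the Stau1 IPs. The groups were again apart, and Stau1 IP 2 was the lowest array. Its log2 fold change was -0.90 with all arrays (SE 0.15, adjusted p = 0.206) and -0.93 without those numbered 2 (adjusted p = 0.0177). BUB1B encodes BubR1, a subunit of the mitotic checkpoint complex, and gave 213, 278 and 200.1 followed by 211, 165 and 186. The deposited signals of BUB1B overlapped, while the normalized ones did not. Its log2 fold change was -0.45 (SE 0.13, unadjusted p = 0.0154). BUB3, the adaptor that both BUB1 and BubR1 need to reach the kinetochore, was 3458, 3559 and 3376 in the controls and 2539, 3106 and 2878 in the Stau1 IPs. BUB3 differed least of these 4, with a log2 fold change of -0.34 (SE 0.11, unadjusted p = 0.0233), and it passed an unadjusted p of 0.05 in 9 of 16 alternatives. Without the arrays numbered 2 the log2 fold changes were -0.46 for BUB1B and -0.49 for BUB3 (adjusted p = 0.234 and 0.0564).

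**Figure D3:**
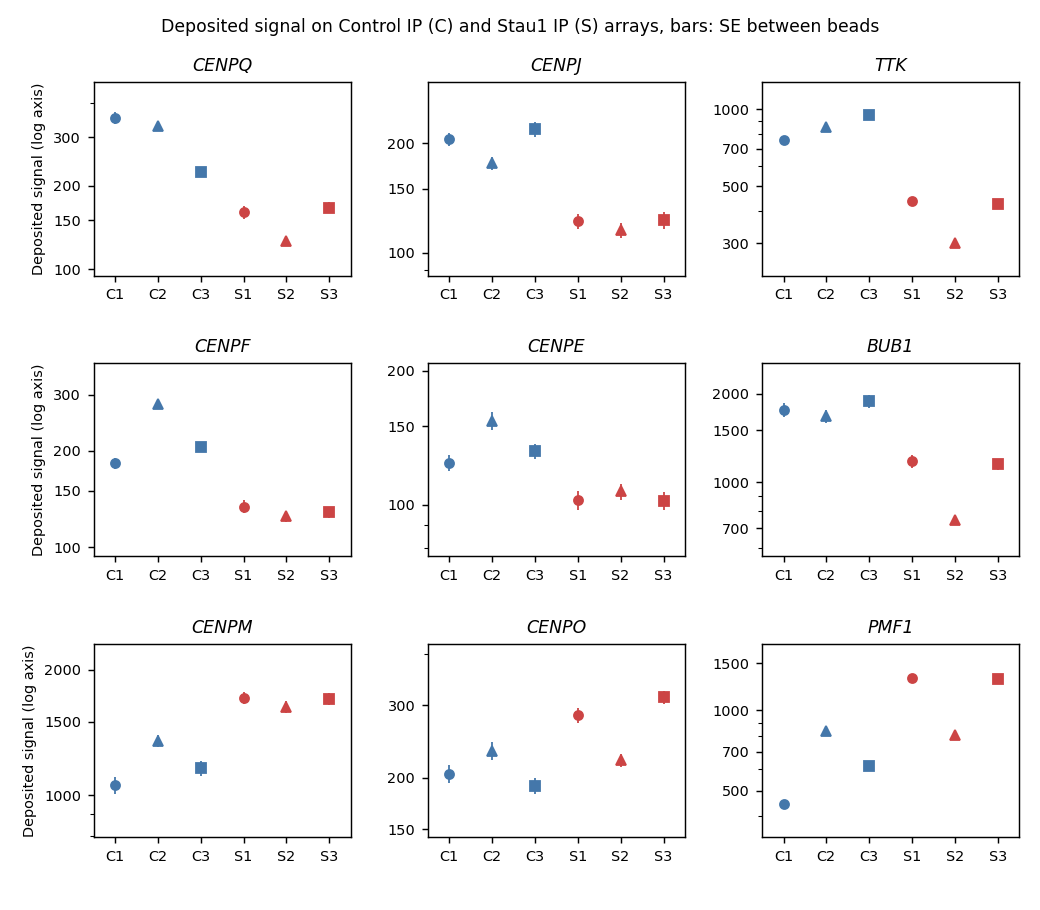
Deposited signal of 9 members on each array, on a log axis, with bars for the standard error between beads. The Stau1 IPs lie below the Control IPs for CENPQ, CENPJ, TTK, CENPF, CENPE and BUB1 and above them for CENPM.

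The values of the MAD genes turned on the arrays numbered 2. MAD2L1, whose protein changes shape to inhibit CDC20, gave 1524, 1635 and 839.7 in the controls and 1602, 497 and 1747 in the Stau1 IPs. The lowest array was Stau1 IP 2 and the next lowest Control IP 3, and the groups overlapped. The log2 fold change was -0.21 (95% interval -1.38 to 0.96) with all arrays and 0.39 without the arrays numbered 2. MAD1L1, which anchors MAD2L1 at the kinetochore, gave 246, 260.0 and 360.2 and then 284, 389 and 289, with the highest value in Stau1 IP 2. The log2 fold change changed sign, from 0.20 (SE 0.39) to -0.40, and neither fit passed an unadjusted p of 0.05.

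The 12 inner kinetochore genes found were mixed, with 4 lower and 2 higher at an unadjusted p under 0.05 and a median log2 fold change of -0.09. Of targets detected on at least 3 arrays, 11.5% were lower and 9.53% higher at that p. CENPQ, a subunit of the CENP-O subcomplex, had signals of 352, 330.3 and 224 in Control IP 1, 2 and 3 and 161, 126 and 167 in Stau1 IP 1, 2 and 3. Its groups did not overlap, and its depletion of 2.92-fold ranked 2 from the lowest of all 37879 log2 fold changes (log2 fold change -1.55, SE 0.26, unadjusted p = 0.000948, adjusted p = 0.203). Without the arrays numbered 2 it was -1.46 (adjusted p = 0.0646), and with no background correction -1.03. CENPO, which gives that subcomplex its name, was higher, at 204, 232 and 191 in the controls and 283, 221 and 313 in the Stau1 IPs. The deposited signal of Control IP 2 was above that of Stau1 IP 2, and only the normalized values of CENPO were apart (log2 fold change 0.50, SE 0.09, unadjusted p = 0.00123, and 0.45 without the arrays numbered 2). CENPP, a further subunit of it, gave 271, 303 and 259 and 261, 272 and 283, with overlapping groups and a log2 fold change of -0.06 (SE 0.18) that came to -0.31 without the arrays numbered 2 (adjusted p = 0.231). Subunits of the same subcomplex therefore lay on both sides of 0.

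CENPM, a small protein of the CENP-H/I/K branch, gave 1057, 1350.3 and 1160.4 in the controls and 1713, 1628 and 1705 in the Stau1 IPs. Every Stau1 IP was above every control in both deposited and normalized signals (log2 fold change 0.49, SE 0.08, unadjusted p = 0.000768, adjusted p = 0.200), and the log2 fold change was 0.45 without the arrays numbered 2. Its partners CENPH and CENPK went the other way. CENPH gave 238, 244 and 169.9 against 168, 159.7 and 166 (log2 fold change -0.59, SE 0.23, unadjusted p = 0.0447). CENPK gave 342, 309.8 and 177 against 190.3, 133 and 215 (log2 fold change -0.94, SE 0.37, unadjusted p = 0.0453), and the normalized value of Control IP 3 lay among the Stau1 IPs in both genes. CENPN, which recognizes the CENP-A nucleosome, gave 2306, 2145 and 1814 in the controls and 1260.0, 1832 and 1499.6 in the Stau1 IPs. Stau1 IP 2 reached the level of Control IP 3, and the log2 fold change was -0.54 (SE 0.22, unadjusted p = 0.0498). An unadjusted p under 0.05 was kept by CENPH in 8, CENPK in 5 and CENPN in 6 of 16. Without the arrays numbered 2 the log2 fold changes were -0.75 for CENPH, -0.72 for CENPK and -0.81 for CENPN, and CENPK alone among the 16 members no longer had an unadjusted p under 0.05.

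CENPB, which binds a motif in alpha satellite DNA, gave 2898, 6443 and 4084 in the controls and 7499, 4230.0 and 9478 in the Stau1 IPs. The 2 highest arrays were Stau1 IP 1 and 3, and Control IP 2 came next, above Stau1 IP 2. The log2 fold change was 0.66 with all arrays (SE 0.37, adjusted p = 0.688) and 1.26 without those numbered 2 (adjusted p = 0.0235). CENPA, the centromeric histone H3 variant, gave 848, 924 and 648 followed by 829, 579.7 and 884, and its groups overlapped (log2 fold change -0.12, SE 0.15, and -0.06 without the arrays numbered 2). CENPL, the partner of CENPN, had overlapping groups and a log2 fold change of 0.04, or 0.26 without the arrays numbered 2. CENPC1, which bridges inner and outer kinetochore, was detected on 3 arrays and CENPI on none, and neither passed an unadjusted p of 0.05.

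**Figure D4:**
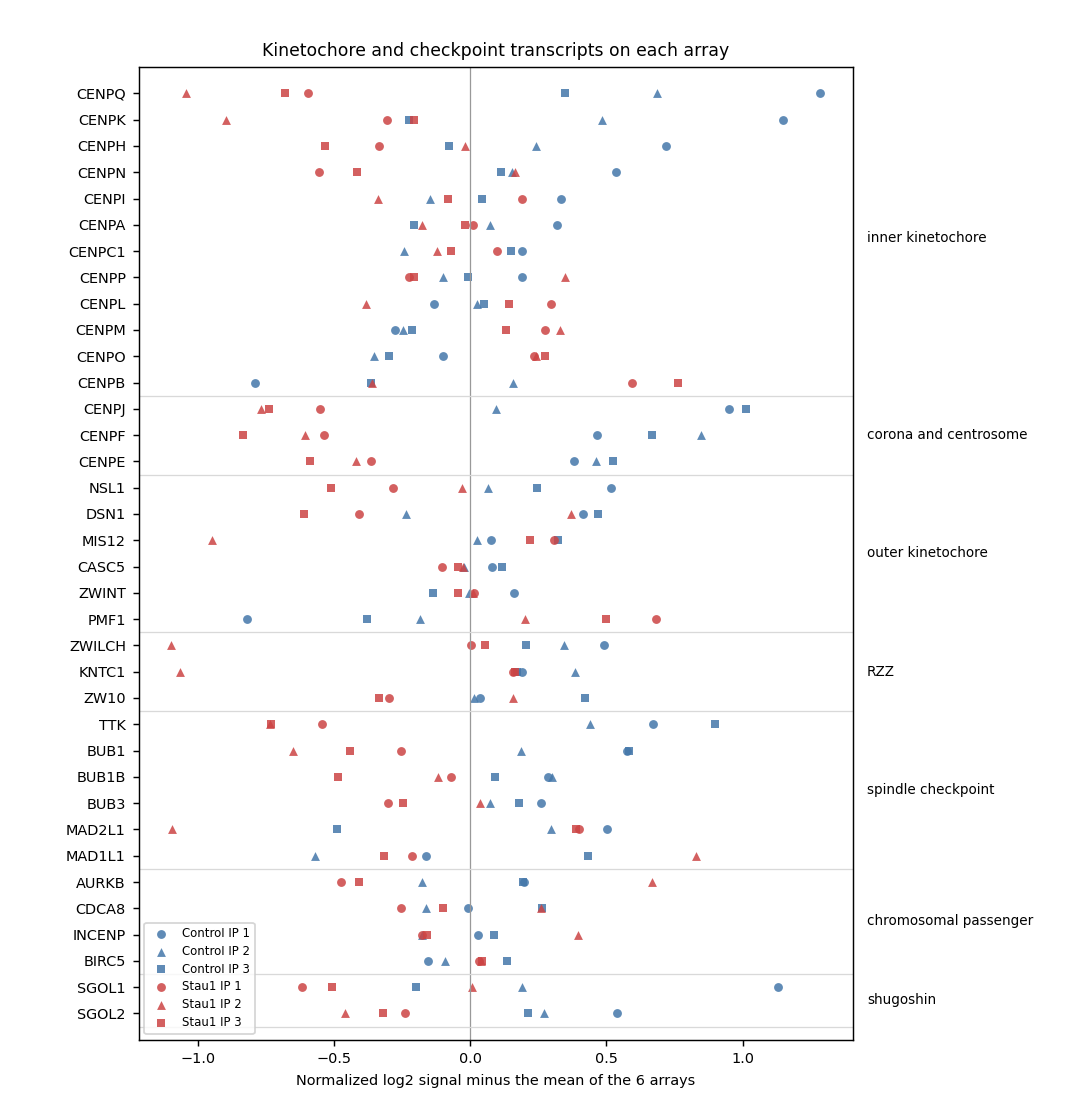
Normalized log2 signal of each member on every array, minus its mean over the 6 arrays (blue, Control IP; red, Stau1 IP; circles, triangles and squares for replicates 1, 2 and 3). Blue and red are apart for 16 members, and the red triangle of Stau1 IP 2 lies away from the other red points in AURKB, MIS12 and MAD2L1.

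In the outer kinetochore, the 4 subunits of the MIS12 complex lay on both sides of 0. PMF1 had the highest log2 fold change of all members, with 445, 838 and 617 in Control IP 1, 2 and 3 and 1320.4, 805 and 1308 in Stau1 IP 1, 2 and 3. Stau1 IP 1 and 3 were the brightest arrays, and Control IP 2 slightly exceeded Stau1 IP 2 before normalization but not after it. PMF1 was 1.90-fold higher in the Stau1 IPs, below the 2.5-fold call (log2 fold change 0.92, SE 0.20, unadjusted p = 0.00366, adjusted p = 0.237), and the log2 fold change was 1.19 without the arrays numbered 2 (adjusted p = 0.0275). NSL1 gave 424, 424 and 386 in the controls and 321, 285 and 309.6 in the Stau1 IPs, with no overlap (log2 fold change -0.55, SE 0.17, unadjusted p = 0.0162, and -0.78 without the arrays numbered 2). DSN1 gave 1144, 947 and 1255 and 796, 1076 and 762. Stau1 IP 2 lay among the controls for DSN1, and the log2 fold change was -0.43 with all arrays (adjusted p = 0.796) and -0.95 without those numbered 2 (adjusted p = 0.0179). MIS12 itself gave 775, 961 and 979 and 1071, 381 and 1113, and Stau1 IP 2 alone was far below the rest (log2 fold change -0.28, SE 0.34, and 0.06 without the arrays numbered 2). ZWINT, which binds the scaffold KNL1, gave 910.0, 1043 and 802 against 985, 797 and 1033 and had a log2 fold change of -0.01 (95% interval -0.24 to 0.22). CASC5, which encodes KNL1, stayed at background on all arrays.

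The ROD-ZW10-ZWILCH complex, which brings dynein and the MAD proteins to the outer kinetochore, had 3 members with log2 fold changes below 0 and none at an unadjusted p under 0.05. ZWILCH gave 491, 584 and 439.6 in the controls and 442, 189 and 495 in the Stau1 IPs, and its normalized values were apart (log2 fold change -0.69, SE 0.32, and -0.32 without the arrays numbered 2). KNTC1, the gene of ROD, gave 270.3, 389.8 and 283 and 315, 146 and 344, with Stau1 IP 2 well below the others. Its log2 fold change of -0.50 came to -0.02 without the arrays numbered 2. The deposited signals of KNTC1 overlapped. Its normalized values were apart only narrowly, at 7.85 in Control IP 3 and 7.84 in Stau1 IP 3. ZW10 gave 2279, 2651 and 3094 and 2009, 2552 and 2163 (log2 fold change -0.32, SE 0.18), with overlapping groups, and -0.54 without the arrays numbered 2 (adjusted p = 0.1299).

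None of the 4 chromosomal passenger transcripts passed an unadjusted p of 0.05 with all arrays, and their median log2 fold change was -0.01. AURKB, the kinase that corrects faulty attachments, gave 17290.5, 13689 and 15716 in the controls and 9177, 24329.7 and 10949 in the Stau1 IPs. Stau1 IP 1 and 3 were the lowest arrays and Stau1 IP 2 the highest. The log2 fold change was -0.14 with all arrays (95% interval -0.93 to 0.65) and -0.64 without those numbered 2 (adjusted p = 0.0295). BIRC5, or survivin, varied little, at 2506, 3136 and 3210.3 against 3098, 3055 and 3383 (log2 fold change 0.08, 95% interval -0.15 to 0.31). CDCA8, or borealin, and INCENP, the scaffold of the complex, had log2 fold changes of -0.06 and 0.04, and both had overlapping groups. Without the arrays numbered 2 the values were -0.31 for CDCA8 and -0.23 for INCENP, which changed sign, and neither passed an unadjusted p of 0.05.

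The shugoshins shield centromeric cohesin until anaphase. SGOL1 gave 1063, 743 and 488 in the controls and 428, 475 and 496 in the Stau1 IPs. Control IP 1 was the highest array and Control IP 3 lay close to the Stau1 IPs, and the groups overlapped (log2 fold change -0.75, SE 0.36, adjusted p = 0.618, -1.03 without the arrays numbered 2 and -0.37 without Control IP 1). SGOL2 was lower on all Stau1 IPs, at 109.6, 118 and 99.6 against 86.0, 85.6 and 89.8 (unadjusted p = 0.00103), but it was detected on no array and is given no fold.

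**Figure D5:**
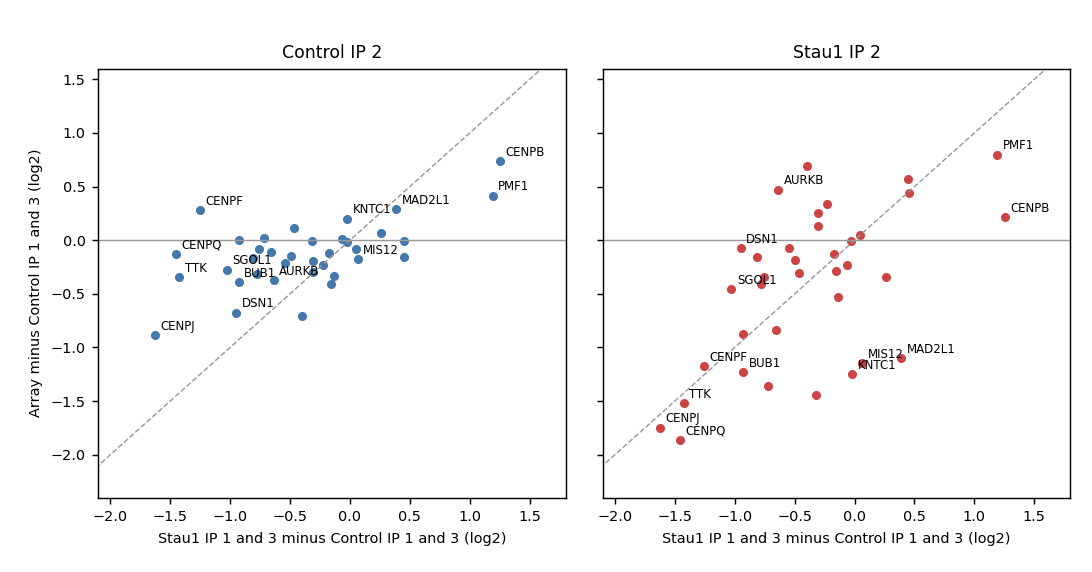
Position of Control IP 2 and Stau1 IP 2 for each member, as the difference of each from the mean of Control IP 1 and 3 (y axis, log2), against the difference of Stau1 IP 1 and 3 from that mean (x axis, log2). A point on the horizontal line equals Control IP 1 and 3 and a point on the dashed diagonal equals Stau1 IP 1 and 3. Stau1 IP 2 lies near the diagonal for TTK, CENPF, CENPE and CENPJ. All of these had an unadjusted limma p under 0.05 in the fit that held this array. For CENPJ, Control IP 2 lies nearer the diagonal than the horizontal line.

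The arrays numbered 2 were also placed gene by gene. Control IP 2 lay nearer to the mean of Stau1 IP 1 and 3 than to that of Control IP 1 and 3 in 13 of 36 members (36.1%), against 50.7% of all targets. Stau1 IP 2 lay nearer to Control IP 1 and 3 in 16 members (44.4%), against 53.5% of all targets. Both held in 9 of 36 members, against 27.6% of all targets. Of the 33 members detected on at least 3 arrays, 33.3% had Control IP 2 nearer to Stau1 IP 1 and 3. Stau1 IP 2 was nearer to Control IP 1 and 3 in 48.5% of them. The shares of all targets detected on at least 3 arrays were 49.7% and 59.4%.

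A list of 43 other kinetochore genes, all found on the array, was read in the same fit. At an unadjusted p under 0.05, 15 were lower and 2 higher, against 5.15% and 4.38% of all targets, and none was called at 2.5-fold. Of targets detected on at least 3 arrays, 11.5% were lower and 9.53% higher at that p. The lower ones were NDC80, NUF2, SPC25, MLF1IP, C6orf173, ITGB3BP, CCDC99, TRIP13, C14orf106, OIP5, CLASP1, CLIP1, KIF18A, ERCC6L and DYNLT3, and the higher ones CENPV and RANGAP1. Among the lower ones, KIF18A was detected on no array, DYNLT3 on 1, and MLF1IP and CLIP1 on 2 each. The median log2 fold change of that list was -0.29, and 31 of 43 values were below 0, against 49.8% of all targets. NDC80 and NUF2, the dimer that binds microtubules, had log2 fold changes of -0.84 (SE 0.30, unadjusted p = 0.0308) and -1.01 (SE 0.28, unadjusted p = 0.0111). NDC80 gave 630.4, 446 and 387 in the controls and 338, 269 and 288 in the Stau1 IPs. Without the arrays numbered 2, 9 of the 43 were lower and 2 higher at an adjusted p under 0.05. The shares for lower and higher were 2.78% and 3.49% of all targets. Among targets detected on at least 3 arrays they were 7.68% and 9.45%. The other NDC80 complex subunits then lay on opposite sides of 0, with SPC24 at 2.26 (adjusted p = 0.0128) and SPC25 at -1.27 (adjusted p = 0.0393). With all arrays SPC24 was at 1.00 (unadjusted p = 0.225) and SPC25 at -0.79 (unadjusted p = 0.0496), and the groups of both overlapped.

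The depleted calls depended on the processing. With no background correction, with plain subtraction, with a rebuilt variance stabilization or with limma's own inference of the negative controls, 0 of the 36 members were depleted. CENPQ, CENPJ, CENPF, CENPE, TTK, BUB1, CENPM and PMF1 kept their sign and an unadjusted p under 0.05 in 16 of 16 alternatives run. Leaving out single arrays gave 1 depleted member without Control IP 3, 2 without Control IP 1 or Stau1 IP 3, and 4 without Stau1 IP 1.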

How the data were processed

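RNA from 3 Control IPs and 3 Stau1 IPs was hybridized to Illumina HumanWG-6 V3 BeadChips. The authors deposited a BeadStudio gene profile with no normalization: the mean bead intensity of each target, its error between beads as an intensity, and a detection p-value. The number of beads, treated here as a score, was deposited too. Probes of a target had been combined, which leaves 142 to 192 targets above a signal of 500 undetected per array.

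Signals were corrected by normexp with an offset of 16 and quantile-normalized (limma 3.58.1, R 4.3.3). The median and SD of the negative controls were read from signals of 200 targets at detection p 0.5 and 0.158655. This replaced limma's inference after values were seen, because that gave an SD of 460 to 608 instead of 11.7 to 13.5. Groups came from the labels. Stau1 IP was compared with Control IP by limma (lmFit and eBayes), with Benjamini-Hochberg adjustment over 37879 targets and the methods' threshold of 2.5-fold with p under 0.05. The variance stabilization and robust spline normalization of the methods were rebuilt as an alternative, since a rebuilt form compresses dim targets. Other alternatives changed the background, scaling, filter, test and threshold or left out arrays. The fit was tested on simulated data, where 99.5% of 200 targets changed 4-fold were recovered with 0 false calls. The changed targets were well above background, replicate noise was the same for every target, and no array was exchanged. The recovery therefore does not cover dim targets, smaller folds or arrays that stand apart from their group.

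Members and lists were chosen with earlier results of these data known. Every member found was named. Values on every array were given for members at an unadjusted p under 0.05 with all arrays or without those numbered 2. They were also given for the highest and lowest detected member of each role. CENPA, MAD2L1, MIS12, ZWINT and KNTC1 were added after their values were seen. Input RNA was not analysed here. The number of 6 arrays limits the precision.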

Additional observations from a re-analysis of the deposited data

How the results depend on the processing

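The count of 3 depleted members became 0 with the negative-control median subtracted and an offset of 50, 0 with the rebuilt variance stabilization, 0 with no background correction and 0 with limma's own inference of the negative controls, an alternative chosen after seeing the data. It was 4 with median centring and 4 at a fold above 2, and 1 to 4 when single arrays were left out. No alternative called a member enriched. Over all targets, 13 depleted became 2 with subtraction, 0 with variance stabilization, 0 with no background correction, 7 with limma's own inference, 113 at a fold above 2, 8 to 38 without single arrays and 109 without both arrays numbered 2. The 10 enriched became 1 with variance stabilization, 4 with median centring, 1 with no background correction, 6 with the methods' t-test, 3 with limma's own inference, 76 at a fold above 2, 2 to 268 without single arrays and 452 without both arrays numbered 2. Members at an adjusted p under 0.05 went from 0 to 10, and all targets from 0 to 2376, without both arrays numbered 2. All targets at that adjusted p numbered 2 with limma's own inference. The median of the members, -0.30, was -0.066 with limma's own inference and ran from -0.36 to -0.27 without single arrays. MAD2L1, MIS12 and INCENP changed sign without both arrays numbered 2 (0.39, 0.06 and -0.23). MAD1L1, CENPP and AURKB changed sign when some single arrays were left out. Without single arrays or both arrays numbered 2, the log2 fold change of MAD1L1 ran from -0.40 to 0.46 (-0.17 the lowest without a single array), that of CENPP from -0.31 to 0.043 and that of AURKB from -0.64 to 0.059. The causes were not tested. With the replicate number as a block, 3 members were depleted and 0 enriched, 13 targets were depleted and 6 enriched, and 0 passed an adjusted p of 0.05. The methods' t-test called 12 targets depleted, 3 of them members, and 0 after Benjamini-Hochberg adjustment. At an unadjusted p under 0.05, both this test and the block left 10 members lower and 3 higher. Same-numbered arrays did not deviate together (r = -0.41, -0.74 and -0.39 over 9884 targets). Deviations were taken from the mean of each group, which the arrays numbered 2 moved, so these values cannot show whether the numbers are pairs. The numbers were not read as pairs in the main fit. Members lower at an unadjusted p under 0.05 numbered 9 to 16 without single arrays. Signals near background limit dim members, and the log2 fold changes ranged from -0.96 to -0.033 for CENPE, -1.67 to -0.085 for CENPJ, -1.42 to -0.090 for CENPF and -1.76 to -0.16 for CENPQ over 16 alternatives.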
